A study of Mus musculus with 6 samples.

Results

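The cytosolic ribosomal proteins were followed in neonatal mouse primary cardiomyocytes (NMCMs) that received HMGB2, a chromatin protein of the high mobility group box family, or an empty vector. Members were the rows of the gene count table named as proteins of the large subunit (Rpl and a number, or Rplp0 to Rplp2) or of the small subunit (Rps and a number, or Rpsa), without rows ending in -ps and without the S6 kinases, that had at least 600 counts summed over the 6 libraries. Of 56691 gene rows, 89 had such names and 76 reached the floor, 45 of the large and 31 of the small subunit. The other 13 rows lay under it. All 76 passed the filter on low counts and were tested among 15429 genes. In the GENCODE annotation 4 of the 76, Rpl6l, Rps3a2, Rps3a3 and Rps4l, are processed pseudogenes whose table names look like those of genes.

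The HMGB2 group (3 libraries, treatment Ad-cTNT-HMGB2, genotype HMGB2 overexpression) received an Ad5 adenovirus with HMGB2, and the vector group (3 libraries, treatment Ad-cTNT vector, genotype Control) the same Ad5-cTNT virus without it. All 6 are total RNA from heart cells of neonatal mice, with the exact age, virus dose and time to harvest not given in the sources used here, and no group without virus was analysed here. The abbreviation cTNT is that of cardiac troponin T, whose promoter is used to restrict expression to cardiomyocytes. The series title places the comparison in a study of MTA2, metabolic reprogramming and cardiomyocyte proliferation. Nothing in the labels says whether the 3 libraries of a group came from separate cultures or litters, so p-values measure the spread between these libraries, which may be technical.

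A cytosolic ribosome is built from a small subunit, which reads the mRNA, and a large subunit, which joins the amino acids and carries the exit tunnel. Each protein is needed in about equal amounts, and most are encoded in mammals by a single intron-containing gene with many processed pseudogenes elsewhere in the genome. Their mRNAs are short, abundant and long-lived, and start with a run of pyrimidines (the 5′ terminal oligopyrimidine, or TOP, motif) through which the mTOR kinase and the RNA-binding protein LARP1 control translation. In the heart, ribosome production rises when myocytes grow.

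Promoter windows, 45 bases before and 45 after the RefSeq transcription start, are printed for 8 members with or without a pyrimidine run there. They are a member with one of the longest runs (Rpl7a), the member of most counts (Rpl4), a stalk protein (Rplp2), a small subunit protein (Rps15a), paralogues of Rpl22 and Rps27 (Rpl22l1 and Rps27l), and members without a run that were lower whichever library was left out (Rps7 and Rpl5). Capitals mark a run of at least 8 pyrimidines within 5 bases of the start, or CCGGAAG, the core of ETS-family sites, on either strand.
Rpl7a: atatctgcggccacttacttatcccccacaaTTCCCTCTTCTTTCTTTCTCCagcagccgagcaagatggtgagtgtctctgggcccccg
Rpl4: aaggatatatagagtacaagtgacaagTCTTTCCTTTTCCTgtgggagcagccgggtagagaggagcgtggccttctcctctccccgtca
Rplp2: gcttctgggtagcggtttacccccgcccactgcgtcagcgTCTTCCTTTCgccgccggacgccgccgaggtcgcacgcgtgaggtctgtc
Rps15a: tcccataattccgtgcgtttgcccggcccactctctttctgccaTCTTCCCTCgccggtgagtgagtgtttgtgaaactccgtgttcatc
Rpl22l1: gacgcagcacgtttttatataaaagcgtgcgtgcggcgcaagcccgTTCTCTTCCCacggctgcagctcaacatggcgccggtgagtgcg
Rps27l: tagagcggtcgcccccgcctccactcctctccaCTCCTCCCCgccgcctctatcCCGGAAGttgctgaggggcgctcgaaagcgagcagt
Rps7: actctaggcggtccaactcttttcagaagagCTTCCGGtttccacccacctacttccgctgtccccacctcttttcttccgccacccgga
Rpl5: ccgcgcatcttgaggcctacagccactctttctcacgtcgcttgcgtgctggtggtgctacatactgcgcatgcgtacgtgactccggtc
In GRCm38.p6 these windows are chr2:26910762-26910851 (Rpl7a), chr9:64173342-64173431 (Rpl4), chr7:141447606-141447695 (Rplp2), chr3:28805463-28805552 (Rpl22l1), chr9:66946041-66946130 (Rps27l) and chr5:107900483-107900572 (Rpl5) on the plus strand. On the minus strand they are chr7:118116103-118116192 (Rps15a) and chr12:28635909-28635998 (Rps7). RefSeq windows of 250 bases before to 50 after the start matched 55 of the 76 members. Such a run was present in 21 of the 55 (38.2%), against 3068 of 27025 genes of all kinds (11.4%). Runs farther from the RefSeq start were not counted. CCGGAAG was found in 22 members (40%), against 9.93% of all genes. CTTTCC, which can lie inside a pyrimidine run, was in 29 members (52.7%), against 29.3%. The box TATAAA, which fixes the start site in some promoters, was in 7 members (12.7%), against 15.7%. These 3 motifs were searched on both strands, and a match is a stretch of letters, not a measured site.

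Library totals were 14497676 to 16618365 counts in the HMGB2 group and 12498215 to 14101385 in the vector group, and TMM scaling factors ran from 0.986 to 1.02. Levels are in CPM, counts scaled to the TMM-adjusted library total. Hmgb2 itself had 175, 196 and 182 CPM in the HMGB2 libraries, against 46.8, 44.8 and 36.3 CPM in the vector libraries (log2 fold change 2.11, edgeR adjusted p = 1.89e-06). Summed over 10 cardiomyocyte markers, the level was 29269 to 30761 CPM in the HMGB2 libraries and 19036 to 19543 CPM in the vector libraries, with 7 of 10 past the threshold as higher and 0 lower (median log2 fold change 0.70). Markers of other cells were also present: 7 fibroblast markers summed to 3697 to 3769 CPM with HMGB2 and 4203 to 4272 CPM with vector (0 higher, 2 lower), and 7 endothelial markers to 2494 to 2503 CPM with HMGB2 and 2832 to 2925 CPM with vector (0 higher, 2 lower). Summed macrophage markers were at 63.8 to 76.0 CPM with HMGB2 and 85.1 to 117 CPM with vector (0 higher, 3 lower of 7), and smooth muscle and pericyte markers at 443 to 521 CPM with HMGB2 and 426 to 532 CPM with vector (1 higher, 0 lower of 6). The 5 erythroid markers summed to at most 1.10 CPM in any library, and Hba-a2 and Hbb-bt were at 0. Beside these marker counts, 14.4% of all tested genes were higher and 10.8% lower over 6 libraries. In bulk RNA, fewer cells of a type and less RNA per cell cannot be told apart, and the part of these markers in the results was not tested.

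The libraries vector 1 and HMGB2 3 stood apart from the others of their groups. Compared with the mean of vector 2 and 3, transcripts under 1000 bases had a median log2 deviation of 0.27 in vector 1, against 0.00 for longer ones. In HMGB2 3, against HMGB2 1 and 2, the same medians were 0.19 for short and -0.01 for longer transcripts. Ttn, the longest of the cardiomyocyte markers, had 3101, 2989 and 1273 CPM in HMGB2 1, 2 and 3, against 833, 2217 and 2465 CPM in vector 1, 2 and 3. Ribosomal protein transcripts, with a median length of 793.5 bases against 2683.5 for all tested genes, moved with this split: their median deviation was 0.37 in vector 1, positive for 76 of 76, and 0.27 in HMGB2 3, positive for 74 of 76. The main results are therefore given over all 6 libraries and over the 4 without vector 1 and HMGB2 3. This split was chosen from these same data, the members' deviations among them. Setting the 2 libraries aside narrows the spread of many members, as for Rpl8 (standard error 0.13 over 6 libraries, 0.03 over 4). Calls and p-values over the 4, or with a term for the 2, are thus descriptive and no independent evidence. Over the 4, 10 of 10 cardiomyocyte markers were higher, 5 of 7 fibroblast, 6 of 7 endothelial, 3 of 7 macrophage and 2 of 6 smooth muscle markers were lower, and 1 endothelial and 1 smooth muscle marker were higher. Of all tested genes, 20.9% were higher and 19.1% lower over the 4. The marker counts over 6 libraries rested on single libraries: 0 endothelial markers were lower without HMGB2 1, HMGB2 2, vector 2 or vector 3 and 1 without vector 1, 0 macrophage markers without vector 2, and 1 fibroblast marker without HMGB2 1 or HMGB2 2 and 4 without vector 1. Without vector 1, 2 smooth muscle markers were lower. Of all tested genes, 5.49%, 5.67% and 6.16% were lower without HMGB2 1, HMGB2 2 and vector 2. This share was not computed without vector 1 or vector 3.

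Ribosomal protein transcripts took a smaller mean share of the HMGB2 libraries. The 76 genes held 1.45%, 1.45% and 1.78% of all counts in HMGB2 1, 2 and 3 (1.56 ± 0.188%, SD, n = 3), against 2.23%, 1.76% and 1.69% in vector 1, 2 and 3 (1.89 ± 0.294%, SD, n = 3). HMGB2 3 lay above vector 2 and 3, so the groups overlapped, and without HMGB2 3 and vector 1 they did not. Both subunits followed this order: the large subunit held 0.786%, 0.783% and 0.956% with HMGB2, against 1.19%, 0.941% and 0.913% with vector, and the small subunit 0.668%, 0.667% and 0.822% with HMGB2, against 1.04%, 0.815% and 0.782% with vector. The 10 members of most counts together held between 42.5% and 43.5% of all member counts in each of the 6 libraries. That pooled share does not show how single members moved. The log2 deviation of vector 1 from vector 2 and 3 was 0.03 for Rpl7a and 0.57 for Rps20.

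**Figure D1:**
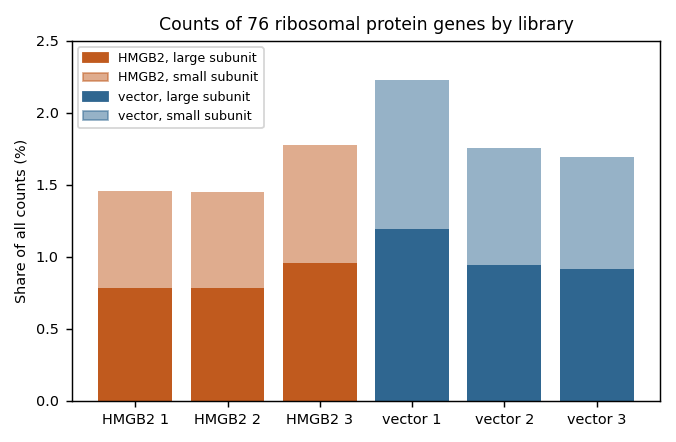
Share of all counts (%, vertical axis from 0) held by the 76 ribosomal protein genes in each library, HMGB2 left of vector, split into large (dark) and small (pale) subunit. HMGB2 1 and 2 stand at 1.45%, HMGB2 3 at 1.78%, and vector 1 is the highest at 2.23%.

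Gene by gene, vector 1 was the highest library for 73 of 76 members, while HMGB2 2 was the lowest for 39 and HMGB2 1 for 34. All 3 HMGB2 libraries lay below all 3 vector libraries in 24 of 76 members (31.6%, against 18.9% of all tested genes), and in 0 members did they lie above (background 21.6%). HMGB2 1 and 2 lay below vector 2 and 3 in 66 members (86.8%, against 33.8% of all tested genes). HMGB2 3 lay above both vector 2 and 3 in 26 members and above at least 1 of them in 51.

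**Figure D2:**
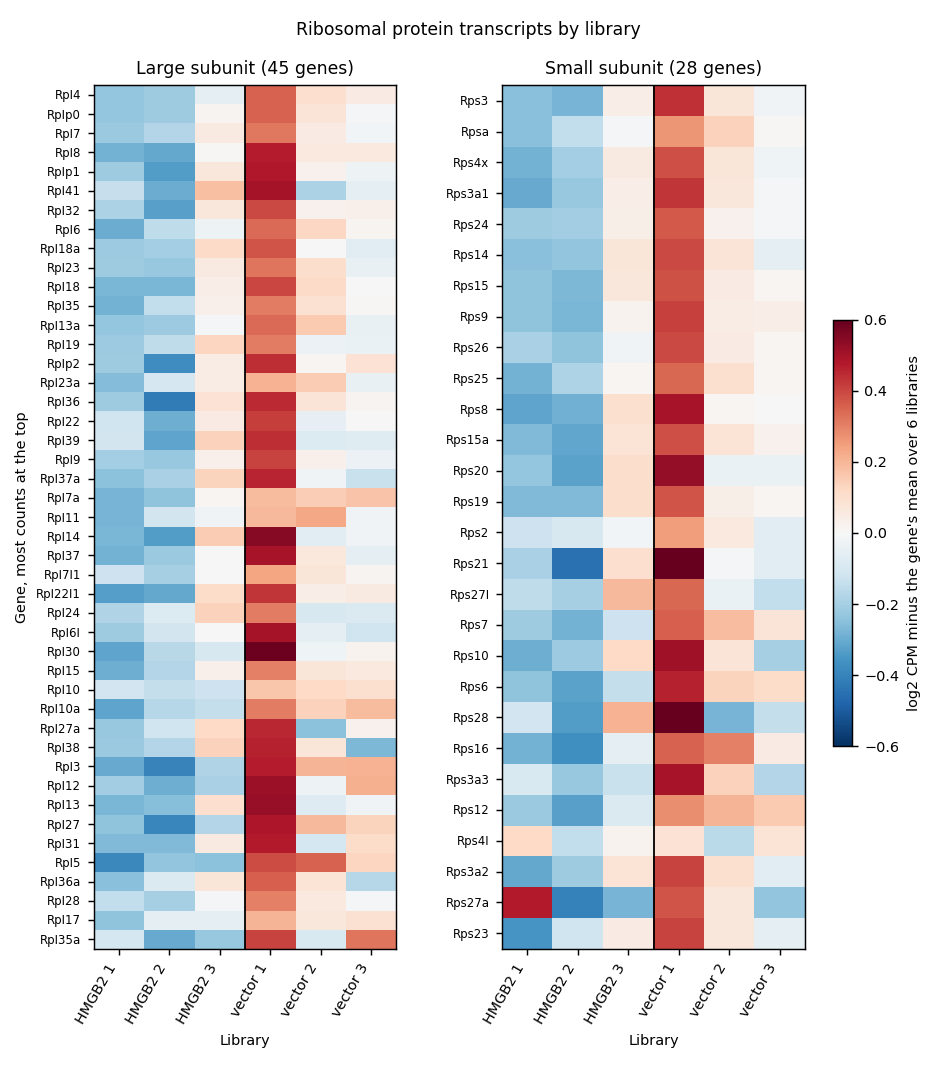
Log2 CPM of each member minus its mean over the 6 libraries (colour; the scale ends at the values on the bar), for 45 large and 28 small subunit genes (rows, most counts at the top) and 6 libraries (columns, HMGB2 left of vector). Blue columns of HMGB2 1 and 2 and the red column of vector 1 run through nearly all rows, and vector 1 is the highest library for 70 of the 73 genes drawn.

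Over 6 libraries, 15 of the 76 members were lower with HMGB2 at an edgeR adjusted p under 0.05 (19.7%, against 10.8% of all tested genes lower), 0 were higher (background 14.4%) and 61 did not pass. At an unadjusted p under 0.05, 44 members were lower (57.9%, against 16.9% of all tested genes) and 0 higher (background 19.6%). The log2 fold change was negative for all 76, with a median of -0.30 (18.8% less RNA), against -0.00216 over all tested genes, and without vector 1 it was negative for 68 with a median of -0.17. Over 6 libraries 53 members lay between -0.40 and -0.20. The range ran from -0.59 for Rpl3 to -0.00051 for Rps4l. Large and small subunit genes had medians of -0.29 (9 of 45 lower) and -0.31 (6 of 31 lower). Over the 4 libraries, 55 members were lower (72.4%, against 19.1% of all tested genes) and 0 higher (background 20.9%), with a median of -0.27 (16.9% less RNA), and all 15 of the first fit were among them. With all 6 libraries and a term for the 2 that stood apart, 65 were lower (85.5%, background 23.0%) and 0 higher.

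The count of calls rested on single libraries more than the median did. Leaving out HMGB2 1 or HMGB2 2 left 5 lower members each (6.58%, against 5.49% and 5.67% of all tested genes), so that the members' share was near the background. Leaving out vector 2 left 9 (background 6.16%), and leaving out HMGB2 3 gave 38 (background 8.97%), while the median stayed between -0.39 and -0.17. Of the 1841 tested genes with transcripts under 1000 bases, 6.03% were lower over 6 libraries and 12.6% over 4, with medians of -0.04 and -0.014, both closer to 0 than the members' medians. With each library's trend on transcript length removed, 46 members were lower (background 15.5%) with lengths implied by the FPKM values and 50 (background 17.1%) with GENCODE lengths. DESeq2 called 25 lower (background 10.5%) and 0 higher. High levels did not bring more calls over 6 libraries, where 10.8% of all tested genes were lower. Of 44 members at a mean of 100 CPM or more, 5 were lower, a share near that of all tested genes. All 44 log2 fold changes lay between -0.42 and -0.16. Below that level, 10 of 32 were lower. Over 4 libraries, where 19.1% of all tested genes were lower, the counts were 41 of 44 and 14 of 32.

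**Figure D3:**
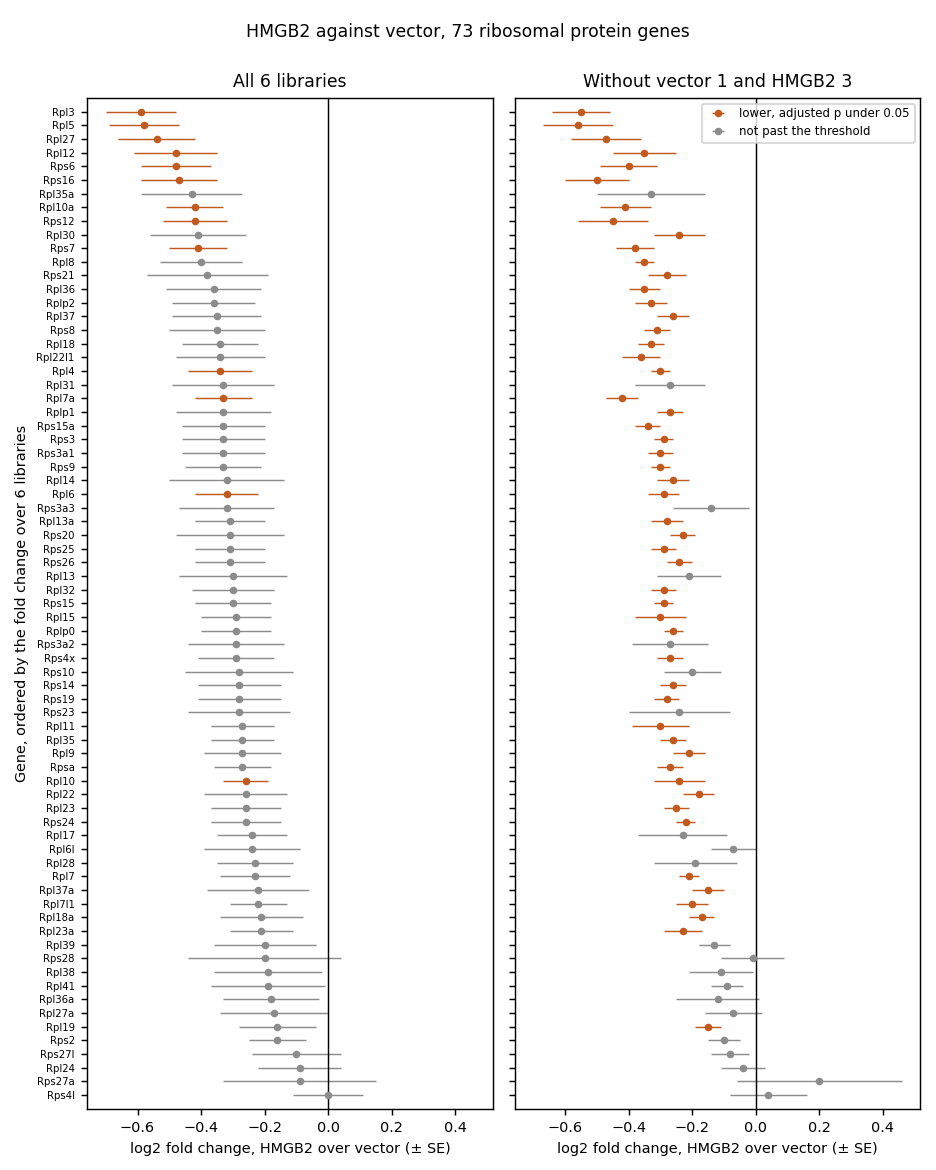
Log2 fold change, HMGB2 over vector, with its standard error (edgeR), for 73 members over all 6 libraries (left panel) and over the 4 without vector 1 and HMGB2 3 (right panel), orange where the adjusted p is under 0.05. The medians over all 76 members are -0.30 for 6 libraries and -0.27 for 4. The bars are shorter on the right for most members but not for all, as in Rps27a (0.24 left, 0.26 right). Of the members drawn, 13 are orange on the left and 52 on the right.

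Among large subunit proteins, Rpl3, Rpl5 and Rpl27 had the most negative fold changes. Rpl3, a core protein close to the peptidyl transferase centre, had 20.7, 19.3 and 22.5 CPM in HMGB2 1, 2 and 3, against 35.4, 29.4 and 29.5 CPM in vector 1, 2 and 3. Every HMGB2 library was under every vector library, and Rpl3 fell by 0.59 ± 0.11 (log2, SE; edgeR adjusted p = 0.00365), by 0.55 over 4 libraries. Rpl27, a protein with no bacterial counterpart, had 17.2, 15.5 and 18.0 CPM with HMGB2, against 28.5, 23.3 and 22.3 CPM with vector, again without overlap (log2 fold change -0.54 ± 0.12, edgeR adjusted p = 0.00930; -0.47 over 4 libraries, adjusted p = 0.00104). Rpl10a, a protein of the L1 stalk next to the exit site for tRNA, had 27.8, 30.8 and 31.4 CPM with HMGB2, against 42.9, 38.1 and 39.5 CPM with vector, and fell by 0.42 ± 0.09 (edgeR adjusted p = 0.00753), and by 0.41 over 4 libraries (adjusted p = 4.61e-04). These 3, Rpl5 and Rps7 were the 5 members that stayed lower whichever single library was left out.

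Rpl5 and Rpl11 bind 5S rRNA, and when ribosome assembly fails the free particle binds and inhibits MDM2, which stabilises p53. Rpl5, whose promoter is shown above, had 14.7, 16.3 and 16.2 CPM in HMGB2 1, 2 and 3, against 25.2, 24.6 and 21.0 CPM in vector 1, 2 and 3, and the groups did not overlap. It fell by 0.58 ± 0.11 (edgeR adjusted p = 0.00363), and by 0.56 over 4 libraries. Rpl11 had 99.6, 112 and 119 CPM with HMGB2, against 138, 142 and 119 CPM with vector. HMGB2 3 met vector 3, and Rpl11 did not pass over 6 libraries (log2 fold change -0.27 ± 0.10, edgeR adjusted p = 0.0694) but was lower over 4 (-0.30 ± 0.09, adjusted p = 0.0215). Whether the partners differed in their fold change was not tested.

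Rpl4, Rpl8 and Rpl7a had the smallest p of the large subunit genes over 4 libraries. Rpl4, a protein that lines the exit tunnel and the member of most counts, had 971, 985 and 1098 CPM with HMGB2, against 1458, 1225 and 1180 CPM with vector. The groups did not overlap, and Rpl4 fell by 0.34 ± 0.10 (edgeR adjusted p = 0.0294), and by 0.30 ± 0.03 over 4 libraries (adjusted p = 5.54e-08), but it was not past the threshold without HMGB2 1, HMGB2 2 or vector 2. Rpl8, a protein near the catalytic centre, had 479, 471 and 585 CPM with HMGB2, against 807, 606 and 606 CPM with vector, again without overlap. It just missed the threshold over 6 libraries (log2 fold change -0.40 ± 0.13, edgeR adjusted p = 0.0504) and had the smallest p of all members over 4 (-0.35 ± 0.03, adjusted p = 8.35e-09). Rpl7a, which has the long pyrimidine run printed above, had 107, 110 and 131 CPM with HMGB2, against 148, 144 and 146 CPM with vector. Its vector libraries agree closely, and it fell by 0.33 ± 0.09 (edgeR adjusted p = 0.0208), and by 0.42 ± 0.05 over 4 libraries, but missed the threshold without HMGB2 1, HMGB2 2, vector 2 or vector 3. Rpl6, Rpl10 and Rpl12 were the other large subunit members that fell over 6 libraries.

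In the small subunit, Rps7, a protein that also binds MDM2, had 71.4, 67.9 and 75.9 CPM in HMGB2 1, 2 and 3, against 106, 94.0 and 87.4 CPM in vector 1, 2 and 3. No HMGB2 value reached a vector value, and Rps7 fell by 0.41 ± 0.09 (edgeR adjusted p = 0.00780), and by 0.38 over 4 libraries (adjusted p = 1.37e-05). Rps15a, also shown above, had 205, 199 and 261 CPM with HMGB2, against 323, 261 and 251 CPM with vector. HMGB2 3 lay within the range of the vector libraries, and Rps15a did not pass over 6 libraries (log2 fold change -0.33 ± 0.13, edgeR adjusted p = 0.0904) but was lower over 4 (-0.34 ± 0.04, adjusted p = 2.12e-07). Rps6, the substrate of the S6 kinases, Rps12 and Rps16 also fell over 6 libraries.

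The acidic stalk, made of Rplp0, Rplp1 and Rplp2, recruits the GTPases of elongation, and Rpsa is the small subunit protein once described as a laminin receptor. Rplp0 had 952, 963 and 1130 CPM with HMGB2, against 1428, 1180 and 1112 CPM with vector. Rplp1 had 416, 382 and 505 CPM with HMGB2, against 671, 491 and 472 CPM with vector, and Rplp2 had 173, 155 and 207 CPM with HMGB2, against 273, 202 and 213 CPM with vector. In each of the 3, HMGB2 3 lay within the range of the vector libraries, and none passed over 6 libraries (log2 fold changes -0.29, -0.33 and -0.36, edgeR adjusted p = 0.0838, 0.141 and 0.0802). Rpsa had 654, 701 and 771 CPM with HMGB2, against 935, 856 and 780 CPM with vector, and, although the groups did not overlap, it narrowly missed the threshold (log2 fold change -0.27 ± 0.09, edgeR adjusted p = 0.0549). Over 4 libraries all 4 genes were lower, with log2 fold changes from -0.33 to -0.26.

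Rps2, Rps3, Rps10 and Rps20 line the mRNA entry or the head of the small subunit and are ubiquitylated by ZNF598 or RNF10 when ribosomes stall, as known from human cells. Of the 4, 0 passed over 6 libraries (10.8% of all tested genes were lower) and 2 were lower over 4 (50%, background 19.1%). Rps3 had 707, 693 and 865 CPM with HMGB2, against 1139, 884 and 830 CPM with vector (log2 fold change -0.33 ± 0.13, edgeR adjusted p = 0.0948), and Rps20 had 203, 191 and 256 CPM with HMGB2, against 343, 232 and 232 CPM with vector (-0.31 ± 0.17, adjusted p = 0.213). In both, HMGB2 3 lay above vector 3, and both were lower over 4 libraries (log2 fold changes -0.29 and -0.23). Rps2 had 104, 106 and 112 CPM with HMGB2, against 135, 118 and 108 CPM with vector, and Rps10 had 37.5, 39.5 and 49.8 CPM with HMGB2, against 65.4, 48.5 and 40.0 CPM with vector. Rps2 and Rps10 did not pass in either fit (edgeR adjusted p = 0.225 and 0.290 over 6 libraries, 0.121 and 0.0712 over 4).

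Several ribosomal proteins have a paralogue that can take their place in some tissues. Of 14 genes in such pairs, 12 were tested over 6 libraries. Of these, 2 were lower, Rpl3 and Rpl10 (16.7%, against 10.8% of all tested genes), and 0 higher (background 14.4%). Over 4 libraries 7 of 11 were lower (63.6%, background 19.1%). Only 1 was lower without HMGB2 1, HMGB2 2, vector 2 or vector 3. Rpl22l1, the partner of Rpl22, had 58.3, 59.2 and 79.1 CPM with HMGB2, against 98.6, 75.4 and 76.0 CPM with vector, and Rpl22 itself had 139, 123 and 156 CPM with HMGB2, against 201, 146 and 151 CPM with vector. HMGB2 3 overlapped the vector group in both, neither passed over 6 libraries (edgeR adjusted p = 0.111 for Rpl22l1 and 0.199 for Rpl22), and both were lower over 4 (log2 fold changes -0.36 and -0.18). Rps27l, a p53-induced copy of Rps27, had 87.1, 84.5 and 111 CPM with HMGB2, against 123, 94.4 and 87.4 CPM with vector. It passed in neither fit (log2 fold change -0.10 ± 0.14, edgeR adjusted p = 0.644; -0.08 ± 0.06 over 4 libraries). Its parent Rps27 had under 6 CPM in every library and was outside the floor, with 98.6% of its 50-base windows found in other genes. Rpl7l1, a Rpl7-like protein, and Rpl7 had log2 fold changes of -0.22 and -0.23, neither past the threshold over 6 libraries and both lower over 4 (-0.20 and -0.21). Rpl10, which helps form the tRNA site, had 36.8, 36.0 and 36.5 CPM with HMGB2, against 44.6, 43.3 and 42.6 CPM with vector, and the groups did not overlap. It fell by 0.26 ± 0.07 (edgeR adjusted p = 0.0301), but missed the threshold when any single library except vector 1 was left out, and was lower over 4 libraries (-0.24, adjusted p = 0.0150). Rpl39, at the end of the exit tunnel, did not pass in either fit (log2 fold changes -0.20 and -0.13). Rps4x, the X-linked gene of a small subunit protein, was not past the threshold over 6 libraries (log2 fold change -0.29) and was lower over 4 (-0.27), while Rps4l was level with 20.3, 16.9 and 19.0 CPM with HMGB2 and 19.9, 16.7 and 19.8 CPM with vector (edgeR adjusted p = 0.998).

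Rpl3l, the striated muscle copy of Rpl3, had a positive fold change at a very low level. It had 0.962, 0.690 and 1.76 CPM in HMGB2 1, 2 and 3, against 0.802, 0.365 and 0.143 CPM in vector 1, 2 and 3, from 72 counts in all. The groups overlapped, and the fold change (1.41 ± 0.58 in log2) missed the threshold over 6 libraries (edgeR adjusted p = 0.107) and was past it with a term for the 2 libraries that stood apart (adjusted p = 0.00897), without vector 1 (log2 fold change 2.14, adjusted p = 0.0262) and with no filter on low counts (adjusted p = 0.0407). Rpl39l had 16 counts in all, and Rpl10l and Rps12l1, known from testis or named as copies, had 0.

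Near the floor, Rps23 and Rpl35a were the last members inside, with 808 and 713 summed counts, and Rps18 and Rpl34 the first outside, with 574 and 500. Rps23 and Rpl35a did not pass (edgeR adjusted p = 0.244 and 0.0724), nor did Rps27a, whose product is a fusion of ubiquitin and a ribosomal protein. Rps27a had 15.1, 8.21 and 8.97 CPM with HMGB2, against 14.1, 11.4 and 9.23 CPM with vector, and its highest library was HMGB2 1. Outside the floor, Rps18 (log2 fold change -0.54, adjusted p = 0.0333) and Rpl34 (-0.67, adjusted p = 0.0317) fell by the edgeR test, as over 4 libraries (-0.63, adjusted p = 0.00848, and -0.80, adjusted p = 0.00250). Neither passed when any single library except HMGB2 3 was left out.

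Of 18 ribosomal protein genes mutated in human Diamond-Blackfan anaemia, in which red cell precursors fail, 5 were lower and 0 higher over 6 libraries (27.8%, against 10.8% of all tested genes lower; median log2 fold change -0.32), and 13 were lower over 4 (72.2%, background 19.1%). Rpl5, Rps7 and Rpl27 had the smallest p. Without HMGB2 1 or HMGB2 2 the count was 3, and without HMGB2 3 it was 10. Of 4 ribosomal proteins that the name pattern misses, 1 fell: Rack1, the scaffold at the head of the small subunit, had 729, 721 and 854 CPM with HMGB2, against 1152, 926 and 936 CPM with vector (log2 fold change -0.39 ± 0.11, edgeR adjusted p = 0.0259; -0.36 over 4 libraries, adjusted p = 2.12e-09). It was not past the threshold without HMGB2 1 (adjusted p = 0.107) or HMGB2 2 (0.111). Rpl36al, a copy of Rpl36a, was at 52.0 ± 5.11 CPM with HMGB2 and 55.7 ± 10.7 CPM with vector (SD, n = 3 each; adjusted p = 0.648).

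Levels of the members differed far more among genes than between groups. Per kb of mRNA, the mean level over 6 libraries ran from 9.61 CPM for Rpl5 to 981 CPM for Rplp1, a 102-fold range for proteins that the ribosome holds in nearly equal number. The table's processing does not state how reads with several matches were counted. Members also differ in how much of their mRNA is found, base for base, in transcripts of other genes. Genes that overlap a member at its own locus were not excluded, so a shared window need not be a copy elsewhere. A median of 55.55% of a member's 50-base windows was found in transcripts of other genes. For Rpl35 it was 95%, shared most with the protein-coding gene Wdr38. The 22 members with 75% or more shared had a median of 54.9 CPM per kb, and the 12 with under 25% shared a median of 283 CPM per kb. Both the share and the level per kb depend on the transcript chosen. The class under 25% includes the pseudogene Rps4l, and Rps15a and Rps20, whose chosen transcripts have 5130 and 3706 bases. Those of Rps15a and Rps20 share windows with 64 and 50 other genes. Across the 76 members, Spearman's rho between shared sequence and level was -0.30, and between shared sequence and the log2 fold change -0.09; the members share libraries and a base composition, and the values describe these libraries only. The median log2 fold change was -0.29 in both classes. Over 6 libraries 8 of 22 and 1 of 12 were lower, against 10.8% of all tested genes. Over 4 libraries 15 of 22 and 9 of 12 were lower, against 19.1%. Absolute levels of Rpl3 (85.6% shared) and Rpl5 (93.8%) are therefore uncertain. Rpl10a (88.1%), Rps7 (70.3%) and Rpl27 (64.1%), which with Rpl3 and Rpl5 stayed lower whichever library was left out, are also largely shared. The fold changes of these 5 may include reads of other genes, which was not tested.

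**Figure D4:**
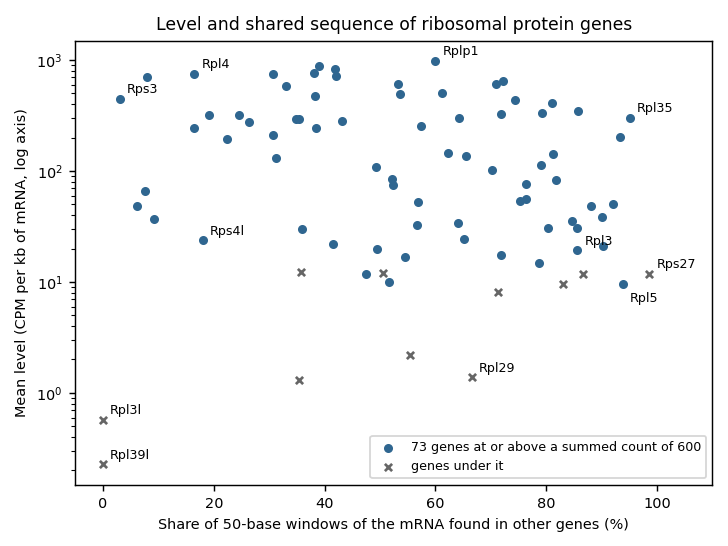
Mean level over 6 libraries (CPM per kb of mRNA, log axis) against the share of 50-base windows of the mRNA found in transcripts of other genes (%), for 73 members (dots) and the genes of the family under the floor (crosses; genes with 0 counts are not drawn). Levels spread over a 102-fold range, from Rpl5 at 93.8% shared to Rplp1 at 60%.

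Rows ending in -ps, a mark for pseudogenes, were counted beside the members. GENCODE types some genes so named as protein-coding, among them Rpl10-ps3 and Rpl9-ps6. Copies under other names, such as Gm15500 for Rpl5, were not included. The table held 279 rows ending in -ps for 56 of the members, of which 75 were tested; 11 were lower and 0 higher over 6 libraries (14.7%, against 10.8% of all tested genes lower; median log2 fold change -0.34), and 25 were lower over 4 (33.3%, background 19.1%; median -0.29). For sequence that a parent shares with its copies, these counts do not show which of them a read came from. With each member's counts summed with those of its -ps rows, 15 of 76 were lower, the same number as without them.

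Promoter letters were set beside the response over 4 libraries. A pyrimidine run at the start was present in 15 of 40 matched members that were lower over 4 libraries (37.5%) and in 6 of 15 that were not (40%), and CCGGAAG in 14 of 40 (35%) and 8 of 15 (53.3%). CTTTCC was in 18 of the 40 (45%) and 11 of the 15 (73.3%), and TATAAA in 3 of the 40 (7.5%) and 4 of the 15 (26.7%). These splits were not tested. In the windows printed above, Rpl7a and Rps27l both carry a run, and their log2 fold changes over 4 libraries were -0.42 and -0.08. Rps7 and Rpl5, which carry none at the RefSeq start, fell by 0.38 and 0.56. The printed Rps7 window does hold a pyrimidine run further downstream. Whether RefSeq starts are those used in these cells was not tested, so members scored without a run may still have one at their start.

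Genes that serve ribosome production are given in 3 lists, beside 10.8% of all tested genes lower and 14.4% higher over 6 libraries, and 19.1% and 20.9% over 4; differences between lists were not tested. Of 70 genes of pre-rRNA processing and ribosome assembly, 57 were lower and 0 higher over 6 libraries (median log2 fold change -0.53), 63 were lower over 4, and 48 to 57 whichever library was left out. Rrp12, a factor for export and maturation of both subunits, had 35.7, 37.0 and 34.1 CPM with HMGB2, against 96.3, 94.1 and 97.4 CPM with vector, and fell by 1.43 ± 0.07 (edgeR adjusted p = 1.89e-06). Ddx21, a nucleolar helicase, had 151, 144 and 149 CPM with HMGB2, against 275, 300 and 307 CPM with vector, and Nolc1, a nucleolar phosphoprotein, 53.0, 51.5 and 54.4 CPM with HMGB2, against 104, 97.1 and 104 CPM with vector. Both fell, by 0.99 and 0.94 (edgeR adjusted p = 1.46e-05 and 1.79e-05). In all 3 genes HMGB2 3 and vector 1 lay with the other libraries of their groups. Of 15 genes of RNA polymerase I and rDNA transcription, 7 were lower and 0 higher (median -0.32), 8 were lower over 4 libraries (median -0.35), and 4 without HMGB2 1, among them the subunit Polr1b (fell by 0.72) and the initiation factors Rrn3 (0.45) and Taf1d (0.46). Of 16 tested rows of snoRNA host genes, many of which also have a TOP start, 5 were lower and 0 higher (median -0.35), 6 over 4 libraries (median -0.31) and 3 without HMGB2 2; without vector 1 the median was -0.20. Snhg17, Snhg16 and 1 of the 2 rows named Snhg4 had the smallest p (log2 fold changes -0.65, -0.74 and -0.64).

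Translation factors, several of which share the TOP start, are set beside the same shares of all genes. Of 36 initiation factors, 15 were lower and 0 higher over 6 libraries (median log2 fold change -0.21), 27 lower and 2 higher over 4, and 7 lower without HMGB2 1, without HMGB2 2 or without vector 2. Eif5, the GTPase activator of start codon choice, Eif3j1, a loosely bound eIF3 subunit, and Eif4a1, the mRNA helicase, had the smallest p and fell by 0.45, 0.68 and 0.46. Of 15 elongation and release factors, 8 were lower and 1 higher (median -0.28), 12 and 1 over 4, and 3 and 1 without HMGB2 1 or without HMGB2 2. Eef1e1, a scaffold protein of the tRNA synthetase complex, and Abce1, the recycling factor, fell by 0.75 and 0.36. The 1 that rose was Eef1a2, the elongation factor form of adult muscle and neurons, with 163, 151 and 164 CPM with HMGB2, against 78.2, 81.1 and 80.8 CPM with vector (log2 fold change 0.99 ± 0.07, edgeR adjusted p = 1.18e-05). Of 26 genes that control ribosomal protein mRNAs (mTOR pathway, LARP family, MYC network), 4 were higher, a share near the 14.4% of all tested genes. In the same list 5 were lower (19.2%, background 10.8%), with a median of -0.10. Over 4 libraries 5 were higher (background 20.9%) and 9 lower (34.6%, background 19.1%). Without HMGB2 1 only 2 were lower, and 3 without HMGB2 2, vector 2 or vector 3. Larp4, an mRNA-stabilising protein, fell by 0.65 ± 0.07 (edgeR adjusted p = 1.51e-04), and Mxi1 and Mxd1, antagonists of MYC, rose by 0.63 ± 0.09 (adjusted p = 9.03e-04) and 0.45 ± 0.09 (adjusted p = 0.00460).

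**Figure D5:**
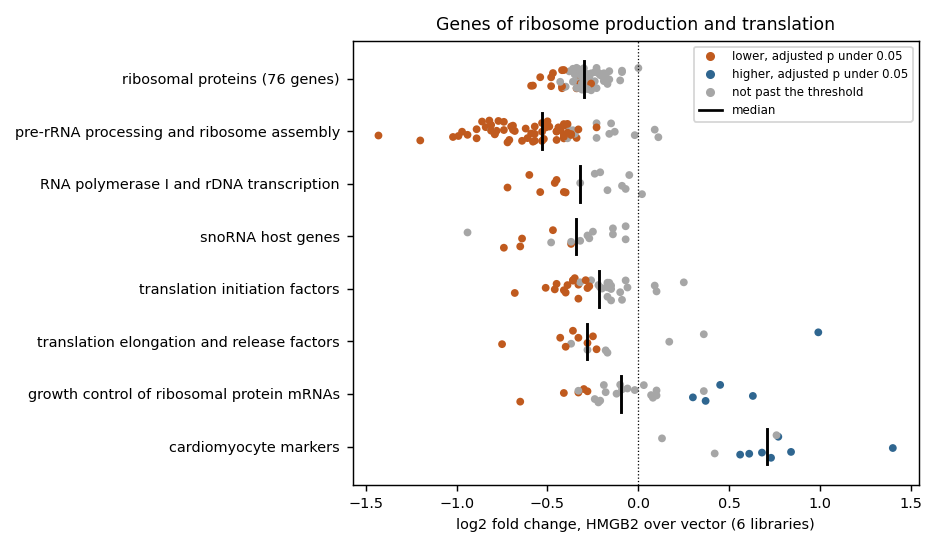
Log2 fold change, HMGB2 over vector, of each tested gene (dots; edgeR, 6 libraries) in lists of ribosome production, translation and cardiomyocyte markers, with the median as a bar, orange for lower, blue for higher and grey for not past the threshold. The ribosomal proteins form the narrowest cloud, around -0.30, the assembly genes reach -1.43 with a median of -0.53, and Eef1a2, at 0.99, is the single blue point among the elongation factors.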

How the data were processed

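RNA-seq libraries of 3 HMGB2 and 3 vector samples were analysed from a gene count table and an FPKM table as deposited. Per the submitters' processing notes the authors used FastQC 0.10.1, HISAT2 2.2.1, HTSeq 0.6.1 and StringTie 1.3.3b with mm10; no source used here gives the strand setting or the handling of reads with several matches. The table's gene positions do not match GRCm38 and are not printed. The deposited counts are whole numbers per gene, and the authors' FPKM values were used only for the alternative fits and for a length per gene. Columns were matched to samples by the abbreviations of the titles' groups and replicate numbers.

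Counts were fitted with edgeR 4.0.16 (R 4.3.3; filterByExpr with a minimum of 10, TMM, robust quasi-likelihood F-test, no covariate), with Benjamini-Hochberg adjustment over 15429 genes and a threshold of 0.05; over 4 libraries 15644 genes passed. Exact permutation of 3 against 3 cannot give p under 0.1 and was not used. Alternatives used DESeq2 1.42.0, limma 3.58.1 on log2(FPKM + 1) or + 0.1, other scalings, filters, designs and left-out libraries. Shared sequence is the share of 50-base windows of the principal GENCODE M21 transcript found, on either strand, in transcripts of other genes, overlapping genes included. Lengths are of that principal transcript.

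The members and lists were chosen with earlier results of these data known, and so was the rule for named genes: members of the stalk, 5S, paralogue and ubiquitylation lists, the 5 members of smallest p per direction in the fits over 6 and 4 libraries, the 3 of highest and lowest mean CPM, those next to the floor, and the 3 of smallest p past the threshold in each other list, or the 2 of highest CPM where fewer than 2 passed. Counts and medians cover all 76 members; 3 small subunit members are not reported here by name and are left out of the plots that show single genes.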

Additional observations from a re-analysis of the deposited data

How the results depend on the processing

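No alternative called a member higher (0 of 76 against 0 over 6 libraries), and the median log2 fold change of the members stayed between -0.39 and -0.17 (over 6 libraries -0.30). The number of lower members, 15 over 6 libraries, moved more. It was 25 with DESeq2, 9 with limma on log2(FPKM + 1) or log2(FPKM + 0.1), 46 without a filter on low counts, 46 with the length trend removed using lengths implied by FPKM, and 50 with GENCODE lengths, an alternative chosen after seeing the data. It was 65 with a term for vector 1 and HMGB2 3 and 55 without both, a split also chosen from these data. It was 6 with a summed count floor of 6000, and 5 to 38 on leaving out 1 library. With the replicate block it was 6. The cause of these moves was not tested, except that the higher floor counts fewer genes. Other scalings, the fit that was not robust, a floor of 60 and summing with -ps rows gave 14 to 18. The share of all tested genes lower was computed only for the fits where it is given above. The limma, unfiltered and replicate-block counts, among others, therefore cannot be set against it. Over all alternatives, 1006 values of the named genes kept their direction and side of the threshold, 89 newly passed it in the same direction, 44 no longer passed it, and 0 reversed while called.
The titles number replicates 1 to 3 in both groups. Deviations of same-numbered libraries from their group means had correlations of -0.30, 0.22 and -0.35, against 0.5 for HMGB2 3 with vector 1. Those libraries stood apart and enter the values for replicates 1 and 3, so the correlations cannot tell whether the numbers pair the libraries. Levels are limited by counts in 6 libraries of 12498215 to 16618365 counts, which leaves members near the floor with few reads, and by reads shared with copies.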
